A study of Mus musculus with 6 samples.

Results

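miR-191 and miR-425 are microRNAs made from hairpins that lie next to each other on mouse chromosome 9, at the gene Dalrd3. The 4 mature strands of these hairpins, miR-191-5p, miR-191-3p, miR-425-5p and miR-425-3p, were taken by name from a table of 1966 mature miRNAs, and all 4 were found. The measurements are small RNA counts from the hearts of 6 wild-type mice, all male and collected 8 weeks after an operation, with 1 library per mouse. In 3 mice (animals 47, 68 and 69) this was a sham operation, and in 3 (animals 29, 78 and 81) it was transverse aortic constriction (TAC), in which the narrowed aorta makes the left ventricle pump against a raised pressure. Both groups carry the genotype label WT, and age and strain were not used here.

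A primary miRNA transcript folds into hairpins that Drosha cuts out in the nucleus and Dicer trims to a short duplex. One strand of the duplex, from the 5p or the 3p side of the hairpin, is usually kept in an Argonaute protein and guides it to mRNAs through its seed, bases 2 to 8, while the other strand is mostly lost. miR-191-5p is widely expressed, abundant in blood cells, and often used as an internal reference when miRNAs are measured by PCR. miR-425-5p is known in human heart cells as a repressor of the mRNA for atrial natriuretic peptide. Dalrd3 encodes a protein that takes part in the methylation of arginine tRNAs.

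The mature sequences are printed because miRNAs with the same seed could act together, and those with similar whole sequences could be confused. They are RefSeq's, on GRCm38.p6, 5′ to 3′, with the seed in capitals.
miR-191-5p: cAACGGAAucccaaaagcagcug
miR-191-3p: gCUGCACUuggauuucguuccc
miR-425-5p: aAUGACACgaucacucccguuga
miR-425-3p: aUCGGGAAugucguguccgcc
miR-489-3p: aAUGACACcacauauauggcagc
The 4 members have 4 different seeds. Only miR-425-5p shared its seed with another row of the table whose sequence was matched, miR-489-3p on chromosome 6 (3721922 to 3721944, minus strand), and that row had 0 counts in all 6 libraries. A count of 0 allows up to 0.855 to 2.45 CPM (a miRNA's counts scaled to a common library size) at these depths, for counting error only. No other row overlapped a member. Among the 1675 rows with a matched sequence none was identical to a member, and the most similar ones differed at 9 to 11 positions when laid side by side without gaps. Each member is listed at 1 place in the genome.

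The hairpins are printed with both mature arms in capitals, to show the arms that are compared below.
Mir191: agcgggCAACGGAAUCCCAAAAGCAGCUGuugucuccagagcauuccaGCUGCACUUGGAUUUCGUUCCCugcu
Mir425: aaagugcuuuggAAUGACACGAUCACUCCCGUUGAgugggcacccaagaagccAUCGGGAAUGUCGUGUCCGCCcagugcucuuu
Mir191 spans 108568319 to 108568392 and Mir425 spans 108568777 to 108568861 of chromosome 9, both on the plus strand. The hairpins are 74 and 85 nt long and lie 384 nt apart. In the deposited coordinates (mm10), miR-191-5p is at 108568325 to 108568347, miR-191-3p at 108568367 to 108568388, miR-425-5p at 108568789 to 108568811 and miR-425-3p at 108568830 to 108568850. What holds them depends on the annotation. RefSeq's Dalrd3 (108567484 to 108572773) contains both hairpins. GENCODE M21 starts Dalrd3 at 108569886, downstream of both, and places them inside the long noncoding RNA gene 4833445I07Rik (108567533 to 108569174). One transcript of that gene has both hairpins in its single exon, and the other, with 2 exons, has Mir191 in its intron and does not reach Mir425. The place within Dalrd3 thus holds for RefSeq's gene span and not for GENCODE's, and the exons of RefSeq's Dalrd3 were not used here. GENCODE M21 also has a miRNA gene, Gm24083 (108568295 to 108568414), on the minus strand over Mir191.

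Library totals ranged from 1818725 to 3509001 counts for sham mice and from 1226187 to 1795831 for TAC mice. All 4 listed cardiomyocyte miRNAs (miR-1a-3p, miR-133a-3p, miR-208a-3p and miR-499-5p) were present in every library, with summed levels of 151805 to 183052 CPM in sham and 273500 to 325883 in TAC, as a heart label requires. The listed endothelial miRNAs, miR-126a-3p and miR-126a-5p, were at 0 in all libraries, but each lies over a row of the opposite strand, so these zeros say nothing of endothelium. Levels below are CPM scaled by TMM, a method that sets libraries to a common level through the bulk of their miRNAs. Adjusted p-values are from edgeR's quasi-likelihood test with Benjamini-Hochberg adjustment over all tested miRNAs.

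Under pressure overload none of the members was called changed in the main test, and with TMM scaling the members did not share a direction. With library totals in place of TMM factors miR-191-5p, miR-425-5p and miR-425-3p all had negative log2 changes (-0.067, -0.43 and -0.74). miR-191-5p averaged 1039 ± 75.3 CPM in the sham hearts and 1230 ± 174 in the TAC hearts, while miR-425-3p averaged 59.1 ± 4.58 and 43.7 ± 2.09 (SD, n = 3 each). miR-425-5p stayed between 54.2 and 68.2 CPM in all 6 hearts. Of the 4 members, 3 passed the filter on low counts, and 0 of these 3 had an adjusted p under 0.05, where 30.5% of the 354 tested miRNAs did (19.2% higher and 11.3% lower in TAC). At an unadjusted p under 0.05 there was 1, miR-425-3p, a criterion that at least the same 30.5% of all tested miRNAs met. DESeq2 and limma-voom also called 0 of the members, where DESeq2 called 98 of 502 tested miRNAs and limma-voom 112 of 354. In whole tissue, fewer cells of a type and less RNA per cell cannot be told apart.

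**Figure D1:**
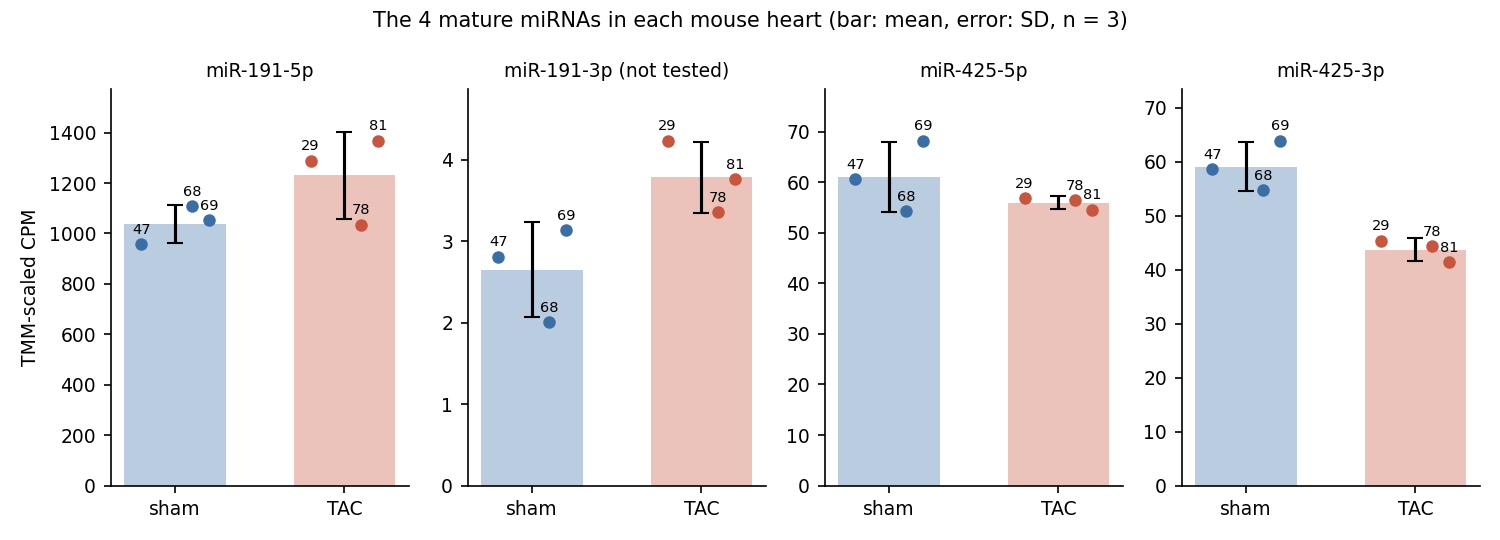
TMM-scaled CPM of each mature miRNA, one panel each with its own axis from 0; points are mice with their animal numbers, bars are group means and error bars SD (n = 3). The groups overlap for miR-191-5p and miR-425-5p. For miR-425-3p the 3 TAC mice, at 41.4 to 45.4 CPM, lie below the 3 sham mice, at 54.7 to 63.9, as in 22.0% of the 354 tested miRNAs. For miR-191-3p, not tested and at 4 to 11 counts, TAC (3.36 to 4.24 CPM) lies above sham (2.01 to 3.13), but the groups overlap with library totals.

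miR-191-5p, the dominant strand of the locus, was at 958, 1107 and 1052 CPM in sham 47, 68 and 69 and at 1288, 1034 and 1368 CPM in TAC 29, 78 and 81. TAC 29 and TAC 81 were above all sham hearts, and TAC 78 lay among them. The log2 fold change was 0.24 ± 0.12 (SE), or 1.18-fold, with adjusted p = 0.153 by edgeR. It ranked 61st by mean level among the 1100 miRNAs with any count. miR-191-5p held between 88.6% and 93.2% of the counts of the 4 members in every library.

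The direction of miR-191-5p depended on the scaling. With library totals in place of TMM factors the sham hearts averaged 1156 ± 77.2 CPM and the TAC hearts 1103 ± 143, a log2 change of -0.067 ± 0.12 (edgeR adjusted p = 0.68). That scaling moves the median of all tested miRNAs from 0.07 to -0.24, so miR-191-5p lay above that median under both.

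miR-191-3p, the other strand of the same hairpin, was close to the limit of these libraries. Sham 47, 68 and 69 gave 11, 4 and 8 counts of it, and TAC 29, 78 and 81 gave 7, 5 and 4. These correspond to 2.81, 2.01 and 3.13 CPM in sham and 4.24, 3.36 and 3.76 CPM in TAC. The scaled groups did not overlap, but they did overlap with library totals (2.96 ± 0.686 and 3.40 ± 0.442 CPM, SD, n = 3 each). With TMM 19.2% of the 354 tested miRNAs were called higher, and the share separated in this direction was not counted. miR-191-3p did not pass the filter on low counts and was not tested. Without that filter its log2 change was 0.32 ± 0.59 (edgeR adjusted p = 0.744), so no difference was detectable at this depth.

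miR-425-5p, the strand with the shared seed, was at 60.6, 54.2 and 68.2 CPM in sham 47, 68 and 69 and at 56.9, 56.5 and 54.5 CPM in TAC 29, 78 and 81. All TAC values lay within the range of the sham values. The log2 fold change was -0.13 ± 0.16 (edgeR adjusted p = 0.549). With library totals the groups separated, the sham hearts averaging 67.9 ± 8.76 CPM and the TAC hearts 50.3 ± 2.65. The change of -0.43 ± 0.17 was not called (edgeR adjusted p = 0.0729). Under that scaling 28.8% of the 354 tested miRNAs were called lower, and the median log2 change of all tested was -0.24. The share of all miRNAs whose groups separated under it was not counted.

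miR-425-3p was at 58.6, 54.7 and 63.9 CPM in sham 47, 68 and 69 and at 45.4, 44.4 and 41.4 CPM in TAC 29, 78 and 81. Every TAC heart was below every sham heart, a separation that 22.0% of the 354 tested miRNAs showed in this direction. The log2 fold change was -0.43 ± 0.15, or 1.35-fold lower in TAC, and it missed the threshold (edgeR adjusted p = 0.0567). Of 17 alternative analyses 6 called it lower, and all 17 gave a negative change, from -0.74 to -0.24. The 6 also called more of all miRNAs lower than the 11.3% above: 15.8% with RLE size factors, 17.8% on upper quartile factors, 28.8% on library totals and 20.3% on totals without the 5 most abundant rows. The other two were a filter of 10 CPM in 3 libraries (16.0%) and counts divided by the number of places (14.7%).

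The members differ in GC content, whose part in that result was not tested beyond the alternative given here. miR-425-3p has 61.9% GC, more than 81.3% of the 315 tested miRNAs with a matched sequence, against 47.8% in miR-425-5p, 52.2% in miR-191-5p and 54.5% in miR-191-3p. After a trend with GC content was taken from each library, in a fit of the 315 miRNAs with a sequence, the log2 change of miR-425-3p was -0.24 ± 0.15 (edgeR adjusted p = 0.301). Those of miR-425-5p and miR-191-5p were then -0.17 ± 0.16 and 0.30 ± 0.13 (edgeR adjusted p = 0.483 and 0.144).

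**Figure D2:**
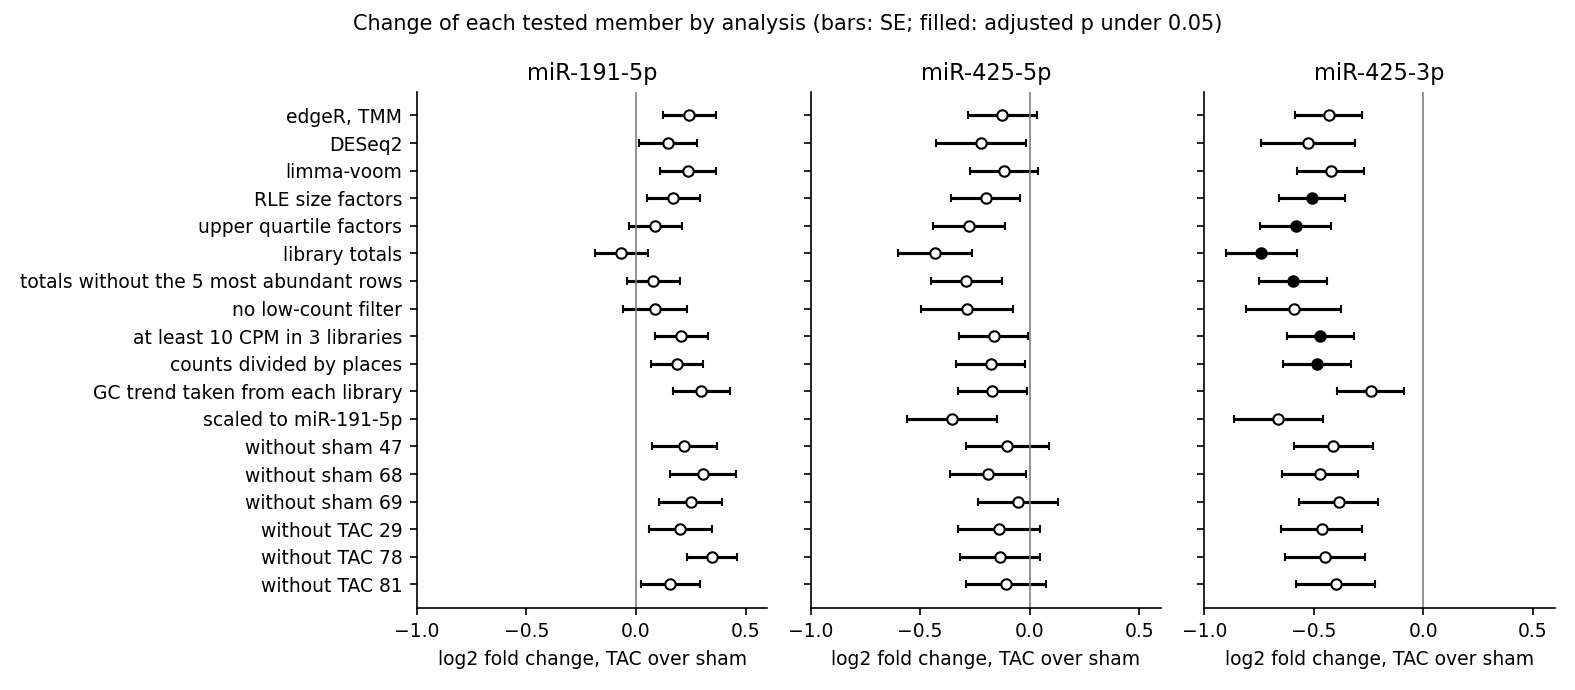
Log2 fold change (TAC over sham, x axis) of the 3 tested members under each analysis (y axis); bars are standard errors and filled points have an adjusted p under 0.05. miR-425-3p stays left of 0 throughout, between -0.74 and -0.24, and is filled in 6 alternatives, while miR-191-5p crosses to -0.067 with library totals.

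Ratios between members need no scaling of libraries, since both counts come from the same library. For 4 such ratios the exact permutation test over mice was two-sided and cannot give a p below 0.1 with 3 against 3. p-values were also adjusted over the 4 ratios.

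The arms of miR-425 were nearly balanced. The ratio of 5p to 3p counts was 1.03, 0.991 and 1.07 for sham 47, 68 and 69 and 1.25, 1.27 and 1.32 for TAC 29, 78 and 81. All TAC ratios were above all sham ratios. The mean log2 ratio differed by 0.31 (exact permutation p = 0.1, adjusted 0.2). As a share, the 3p arm held 49.2% ± 0.936 of the miR-425 counts of the sham hearts and 43.8% ± 0.636 of those of the TAC hearts (SD, n = 3 each), a difference of -5.41 percentage points. The counts behind these shares were 102 to 466 per library, and the 95% Wilson intervals of the 6 libraries overlapped, the lowest bound being 33.9% and the highest 56.8%. Intervals cover counting error only.

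This separation was not stable to the GC trend. With the trend taken from both arms the sham ratios were 1.12, 1.06 and 1.18 and the TAC ratios 1.11, 1.22 and 1.21, animals ordered as before. The groups then overlapped, and the log2 difference was 0.078 (exact permutation p = 0.3). Among 86 hairpins with both arms tested at 1 place each, the arm ratio did not overlap between groups in 32.6% (28 hairpins), and in 18.6% with the 5p side higher in TAC, as for miR-425. By size of difference miR-425 was 43rd of the 86. It was the third most balanced hairpin, where the median hairpin had one arm 8.14-fold above the other.

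**Figure D3:**
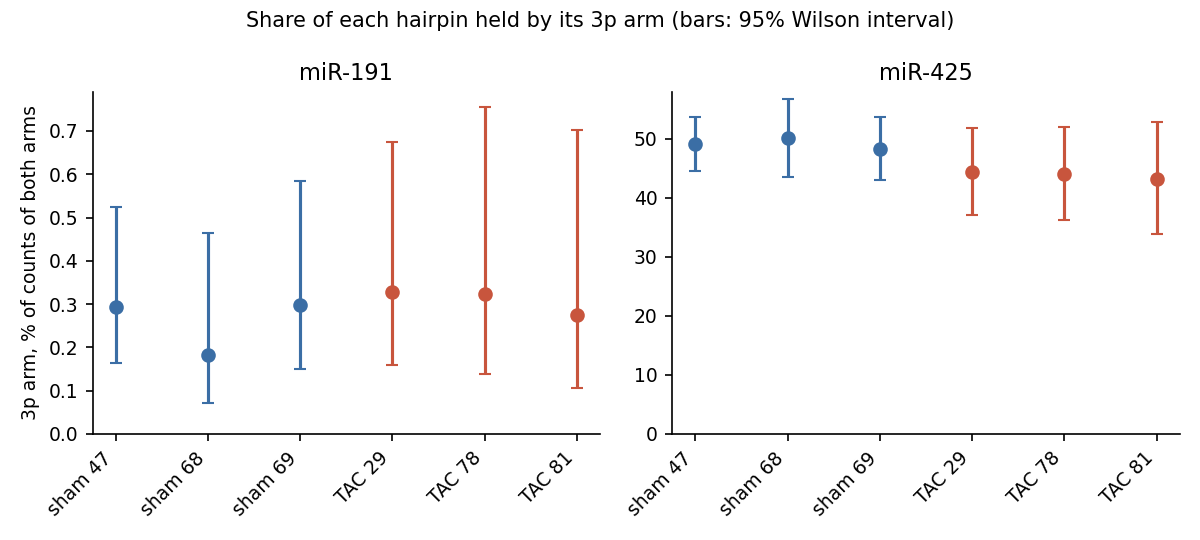
Share of each hairpin's counts held by its 3p arm (y axis, percent, from 0 and on different scales) in each library (x axis); bars are 95% Wilson intervals. In miR-191 the 3p arm is under 1% throughout with overlapping groups, and in miR-425 the sham shares are 48.4% to 50.2% and the TAC shares 43.1% to 44.4%, with intervals that overlap.

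In miR-191 one arm took nearly everything. The ratio of 5p to 3p counts was 341, 551 and 336 for sham 47, 68 and 69 and 304, 308 and 364 for TAC 29, 78 and 81. The groups overlapped (log2 difference -0.30, exact permutation p = 0.3, adjusted 0.3). The 3p arm held 0.257% ± 0.0657 of the miR-191 counts of the sham hearts and 0.309% ± 0.0298 of those of the TAC hearts (SD, n = 3 each). The neighbouring hairpins of one locus thus had different arm patterns, one nearly even and one at least 304-fold uneven in each library.

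Between the hairpins, miR-191-5p was 15.8, 20.4 and 15.4 times miR-425-5p for sham 47, 68 and 69 and 22.6, 18.3 and 25.1 times for TAC 29, 78 and 81. Sham 68 lay above TAC 78, so the groups overlapped. The log2 difference was 0.35 (exact permutation p = 0.2, adjusted 0.267). Between the 3p strands, the ratio of miR-191-3p to miR-425-3p was 0.0480, 0.0367 and 0.0491 in sham and 0.0933, 0.0758 and 0.0909 in TAC. The groups did not overlap (log2 difference 0.96, exact permutation p = 0.1, adjusted 0.2). How often such ratios between strands of different hairpins separate was not counted, so the separation is given as a description. The numerator of that ratio is 4 to 11 counts per library, 23 in all sham libraries and 16 in all TAC libraries. The ratios share members, so they are not independent of each other.

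The 4 members together held 0.129% ± 0.00768 of all counts of the sham hearts and 0.120% ± 0.0142 of those of the TAC hearts (SD, n = 3 each), with an exact permutation p = 0.5.

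Because miR-191-5p serves as a reference in PCR panels, the members were set beside 16 other miRNAs used in that way, of which 15 could be tested. Of these, 4 rose, 1 fell and 10 did not pass, where 19.2% of all tested miRNAs were called higher and 11.3% lower, so the count is near the background. Their median log2 change was 0.02, against 0.07 over all tested miRNAs. miR-30e-5p, of a family abundant in heart muscle, rose by 0.84 ± 0.10 and let-7a-5p, widely expressed in differentiated cells, fell by 0.36 ± 0.11, both as log2 changes (edgeR adjusted p = 0.000901 and 0.0366). miR-185-5p, miR-16-5p and miR-186-5p rose by 0.52 ± 0.11, 0.52 ± 0.12 and 0.41 ± 0.12 (edgeR adjusted p = 0.0107, 0.0125 and 0.0298). With library totals 1 of the 15 was higher and 6 were lower, where 25 of all 354 were higher and 102 (28.8%) lower. miR-24-3p was at 0 in all libraries and lies over a row of the opposite strand.

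Steadiness across the 6 hearts was described by the SD of log2 CPM. miR-425-5p had 0.12, the smallest of the 18 miRNAs set side by side (15 references and 3 members), and 2.54% of all tested miRNAs had a smaller one. That value rests on 58 to 237 counts per library. The share of counting error in these SDs was not separated, so the first place does not show that miR-425-5p was the steadiest. miR-191-5p had 0.20, in 11th place, and miR-425-3p had 0.25, in 14th place. The order again followed the scaling. With library totals miR-191-5p took 6th place at 0.14, miR-425-5p 11th at 0.26 and miR-425-3p the last at 0.42.

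**Figure D4:**
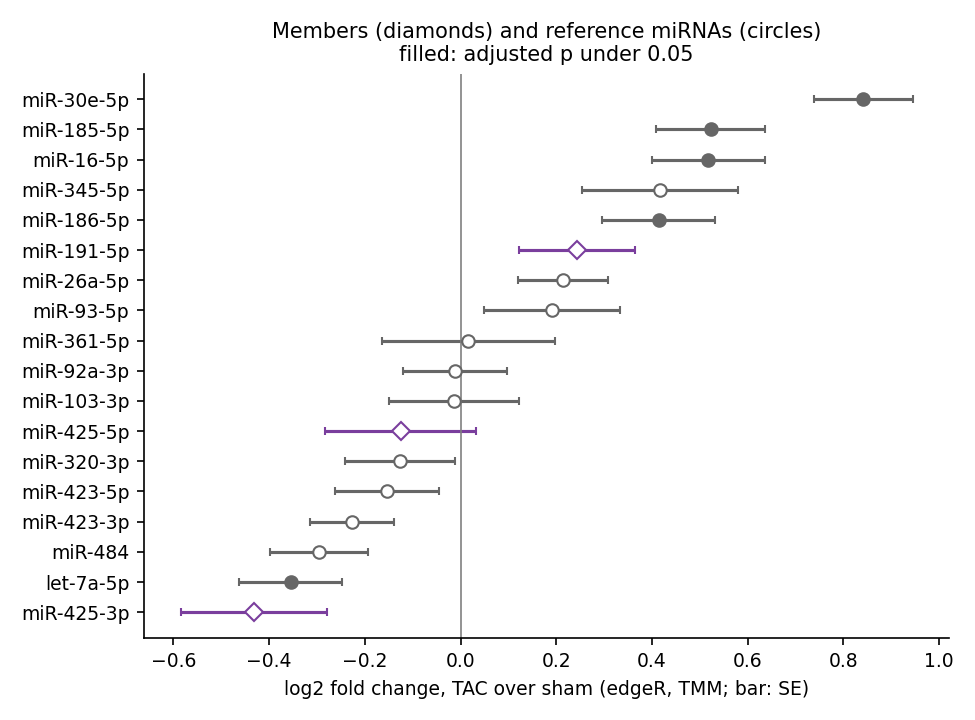
Log2 fold change (TAC over sham, TMM-scaled, x axis) of the 3 tested members (diamonds) and 15 reference miRNAs (circles), with standard errors; filled symbols have an adjusted p under 0.05. The members are open symbols at 0.24, -0.13 and -0.43, and the reference miRNAs run from let-7a-5p at -0.36 to miR-30e-5p at 0.84, so that miR-425-3p has the lowest value shown.

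A second list held 17 mature strands from other hairpins described as sharing an intron of a protein-coding gene (Smc4, Mcm7, Nfyc and Aopep). Of 13 tested, 3 rose, 0 fell and 10 did not pass, with a median log2 change of 0.06, beside the same 19.2% higher and 11.3% lower over all tested miRNAs. Of the strands described in Nfyc, miR-30e-5p rose by 0.84 ± 0.10 and miR-30c-1-3p by 0.88 ± 0.15 (edgeR adjusted p = 0.000901 and 0.00355), and miR-30e-3p was at 0 in all libraries over a row of the opposite strand. Of those described in Mcm7, miR-25-3p rose by 0.46 ± 0.10 (edgeR adjusted p = 0.0121). The other 4 tested were not called: miR-106b-5p was at 0.48 ± 0.18, miR-93-5p at 0.19 ± 0.14, miR-106b-3p at -0.21 ± 0.14 and miR-25-5p at -0.68 ± 0.29. The 6 tested strands described in Smc4 and Aopep were not called either, at 0.06 (miR-15b-5p), 0.24 (miR-15b-3p), -0.12 (miR-27b-5p), -0.19 (miR-23b-3p), -0.19 (miR-27b-3p) and -0.71 (miR-23b-5p). With library totals 2 of the 13 were higher and 4 lower, where 25 of all 354 were higher and 102 (28.8%) lower. miR-25-3p was then not called (0.15, edgeR adjusted p = 0.302).

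The patterns most like each tested member were found among 294 other tested miRNAs of at least 10 CPM, by the root mean square difference of centred log2 CPM over the 6 libraries, given as a description. Nearest to miR-191-5p were miR-1839-5p, miR-340-5p and miR-181d-5p (0.080, 0.081 and 0.093, where the median miRNA was at 0.31). Nearest to miR-425-5p were miR-339-3p, miR-139-5p and miR-23b-3p (0.073, 0.076 and 0.080). Nearest to miR-425-3p were miR-1981-5p, let-7b-5p and let-7a-5p (0.062, 0.071 and 0.073), of which both let-7 rows were called lower (edgeR adjusted p = 0.0283 and 0.0366). The members were not each other's nearest: miR-425-3p was at 0.16 from miR-425-5p and at 0.37 from miR-191-5p, and miR-425-5p was at 0.26 from miR-191-5p.

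TMM-scaled summed levels of several cell type marker lists did not overlap between the groups, in sums that rest on few strands. The red blood cell and smooth muscle sums were mostly miR-451a (mean 971 CPM in sham, 2154 in TAC) and miR-143-3p (37842 and 58970). How often sums of other strands separate was not counted. Among single miRNAs 22.0% of the 354 tested were separated with TAC lower, and the share with TAC higher was not counted. The summed level of 3 red blood cell and platelet miRNAs was 963 to 1123 CPM in sham and 1598 to 2996 in TAC, with 1 of 2 tested, miR-451a, called higher, miR-144-3p not called and miR-486a-5p at 0 over an opposite-strand row. The 4 leukocyte miRNAs summed to 213 to 230 CPM in sham and 335 to 352 in TAC. Of these only miR-150-5p was called higher, miR-142a-5p and miR-155-5p were not called, and miR-223-3p was at -0.19 ± 0.24. The 2 miRNAs of fibroblasts and mesenchyme summed to 2614 to 3911 and 1588 to 1897 CPM (2 of 2 lower). Of the smooth muscle miRNAs, summed to 34122 to 42676 and 58694 to 61691 CPM, miR-143-3p was higher and miR-145a-5p was not called. All 4 cardiomyocyte miRNAs were called higher. These calls are with TMM, where over all tested miRNAs 19.2% were called higher and 11.3% lower. With library totals 2 of the 4 cardiomyocyte miRNAs were called higher, where 25 of all 354 were higher and 102 lower. When scaled to miR-191-5p it was also 2 of the 4. The numbers called in the other marker lists were the same with library totals. The part of these cell types in the values of miR-191 and miR-425 was not tested.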

How the data were processed

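The authors deposited 1 table of raw read counts per mature miRNA, with coordinates and 1 column per mouse. Per the submitters' processing notes, mm10, HISAT2, StringTie and DESeq2 were used, with no role or version. Which counter, library kit, adapter trimming and strandedness were used is not given in the sources used here. Each of the 6 value columns was matched to a mouse by its number in the labels, and 0 were left over. Groups share no animal number and no batch is given.

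The main test was edgeR 4.0.16 (TMM, filterByExpr, quasi-likelihood F-test, no covariate) on all 6 libraries in R 4.3.3, tested on simulated data. Standard errors come from the test statistic. Alternatives used DESeq2 1.42.0, limma-voom (limma 3.58.1), other scalings and filters, counts divided by places, a GC trend (local regression, span 0.75) and leaving out each mouse. Scaling to miR-191-5p and the GC trend on ratios were chosen after seeing the data. Exact tests used scipy 1.17.1. Sequences were matched to RefSeq (GRCm38.p6) by name and position for 1675 of 1966 rows.

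The 4 members, the lists and the alternatives were chosen with earlier results of these data known. Named miRNAs are the members, rows with a member's seed, called or lowest-p list members, the 3 rows most like each member, and cell type markers. Of the second list, all tested strands are given. No strand or multi-mapping setting is known, so a count can include reads from the opposite strand or another place.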

Additional observations from a re-analysis of the deposited data

How the results depend on the processing

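No paired analysis was possible because the groups share no animal number. miR-425-5p was not called and stayed negative in 17 alternatives (-0.43 to -0.052). miR-191-5p was not called in 16 and reversed in 1, to -0.067 with library totals. The untested miR-191-3p differed by 0.40 in mean log2 CPM, and by 0.19 with library totals. miR-425-3p passed the threshold with RLE size factors (-0.51, edgeR adjusted p = 0.033), upper quartile factors (-0.58, 0.0247), library totals (-0.74, 0.00837), totals without the 5 most abundant rows (-0.60, 0.0196), 10 CPM in 3 libraries (-0.47, 0.0401) and counts divided by places (-0.48, 0.0435). The cause was not tested. Without any 1 mouse it was not called.

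Over all miRNAs, 108 were called (68 higher, 40 lower), 65 with the GC trend (fewer were tested), 58 when scaled to miR-191-5p, and 64 to 83 without 1 mouse, lowest without TAC 81 and 69 without TAC 78. The split of higher and lower was 50 and 56 for RLE size factors, 41 and 63 for upper quartile factors, 25 and 102 for library totals, 43 and 72 without the 5 most abundant rows, 48 and 50 by DESeq2, 42 and 65 without a filter, 51 and 52 with counts divided by places and 16 and 42 when scaled to miR-191-5p. The miR-425 arm ratio difference of 0.31 moved to 0.078 with the GC trend. The share of the 4 members differed by -0.0096 percentage points, and by 0.0048 of the total without the 5 most abundant rows. Depth limits miR-191-3p most, at 4 to 11 counts.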

Other observations

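With libraries scaled to miR-191-5p itself, as a PCR panel with that reference would do, the median log2 change of all tested miRNAs was -0.17, and 58 miRNAs were called, 16 higher and 42 lower, against 68 and 40 with TMM. miR-425-3p was then at -0.66 ± 0.20 (edgeR adjusted p = 0.0617) and miR-425-5p at -0.36 ± 0.21 (0.254). Of the 15 tested reference miRNAs, 1 was then higher and 2 lower.

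Other hairpins showed larger differences in arm ratio than miR-425. In miR-296 the mean log2 ratio of 5p to 3p counts was 0.23 in sham and 1.96 in TAC, the largest difference among the 86 hairpins, on as few as 18 counts. In miR-21a it was 11.19 and 9.60, on as few as 6 counts. Of the 28 hairpins whose ratios did not overlap between groups, 16 had the higher 5p share in TAC and 12 the higher 3p share. These hairpins were named after their values were seen.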
